A study of Mus musculus with 2 samples.

Results

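Cadherins, protocadherins and catenins were read in sorted cells of the mouse otocyst, the epithelial vesicle that forms the inner ear. The set holds 40 named genes, and its members were the probe sets whose annotation names 1 of these genes alone. It was found as 82 probe sets for 39 genes, of 18194 genes named on the array. Cdh24 was the gene with no such probe set. All cells came from embryos at stage E10.5 that were heterozygous for the reporter transgene Tg(ETAR-EGFP)14Imeg, so both populations carry the transgene and differ in whether EGFP was detected by the sorter. Per the labels, EGFP is found mainly in ventral and dorsomedial cells of the otocyst and not in dorsolateral ones. Trypsin was used at 0.25% for both populations, per the labels. One array was hybridised with RNA of EGFP-positive cells and 1 with RNA of EGFP-negative cells, and they are called positive and negative cells or libraries from here on. The sources used here do not give the number of embryos behind each array.

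Classical cadherins are calcium-dependent proteins that join neighbouring cells, and their cytoplasmic tails bind the p120 (delta) catenins and beta-catenin. Through beta-catenin, alpha-catenin links them to actin. Type I cadherins such as E-cadherin hold epithelia together, type II cadherins are used more in mesenchyme, endothelium and neural tissue, and protocadherins and the giant Fat and Dachsous proteins act in weaker adhesion, cell sorting and tissue polarity. Which cadherins a cell makes is known to change when the otic placode closes to a vesicle and when cells leave an epithelium as neuroblasts or mesenchyme.

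The unit is the MAS5 signal, a linear intensity per probe set that was scaled to the same trimmed mean on both arrays. A floor was set at the 40th percentile of all signals of an array, at 10.4 for the positive and 12.4 for the negative library. Where a gene has several probe sets, the one with the highest mean stands for it, and the ratio is positive over negative after signals under a floor were set to that floor. A gene is counted as higher in a library at a ratio of 2-fold or more, and with 1 array per population no test was possible. Probe sets of the same gene differed in log2 ratio with an SD of 0.41 for genes with a mean signal under 50, 0.33 from 50 to 200 and 0.25 above 200. This SD leaves out variation between embryos, sorts and hybridisations. Signals of different genes are not comparable with each other, because probe sets bind with different strength.

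The negative library, labelled as epithelial like the other, also held transcripts of other cell types. Of 17 mesenchyme markers above the floor, 15 were at least 2-fold higher in it, as were 12 of 13 endothelial, all 8 erythroid, all 9 leukocyte, 7 of 8 hindbrain and 5 of 6 neural crest and glia markers. Of 13 otic epithelium markers, 10 were at least 2-fold higher in the positive library, with a median log2 ratio of 1.36. All these lists were chosen with earlier results of these data known, which limits what their counts can show. The marker genes named below are the 3 of each list whose mean over the arrays was highest. In these bulk samples, fewer cells of a type and less RNA per cell cannot be told apart.

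Of the 39 genes, 31 lay above the floor in at least 1 library and 8 lay at or below it in both. Among the 31 genes, 4 were at least 2-fold higher in positive cells, against 2.9% of all genes above the floor. In the other direction 9 were at least 2-fold higher in negative cells, against 7.63% of all genes. The remaining 18 were within 2-fold, and the median log2 ratio of the 31 was -0.11, against 0.0032 over 13363 genes. Of the 26 members above the floor in both libraries, 4 were higher in positive and 6 in negative cells, against 2.78% and 5.41% of the genes of that kind. The median log2 ratio of these 26 was 0.032, against 0.031 over all genes of that kind, so the lower median of the 31 was not seen among them.

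**Figure D1:**
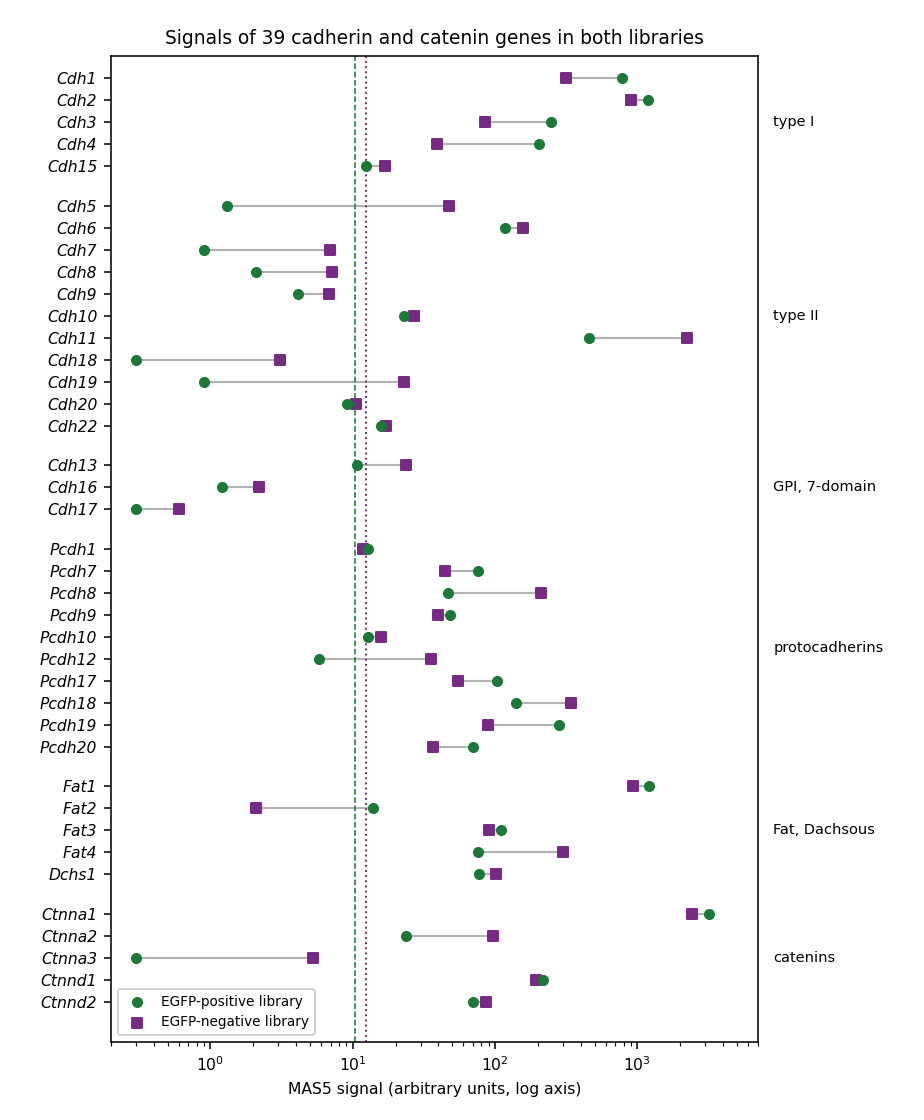
MAS5 signals (log axis, arbitrary units) of the 39 genes, 1 row per gene grouped by subfamily, in the EGFP-positive (green circles) and EGFP-negative (purple squares) library. Dashed and dotted lines mark the floors of 10.4 and 12.4. The green point lies to the right for Cdh1 to Cdh4, and far to the left for Cdh5, Cdh11 and Fat4.

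Type I classical cadherins were the subfamily whose genes leaned to positive cells. Of 5 genes, 3 were at least 2-fold higher there and none was past 2-fold towards negative cells. The shares over all genes above the floor were 2.9% and 7.63%. Cdh4, which encodes R-cadherin (retinal cadherin), differed most. Its signal was 204.5 in positive and 39.2 in negative cells, a 5.22-fold difference and a log2 ratio of 2.38. A second probe set of Cdh4 gave 126.1 against 29.8, a log2 ratio of 2.08, and the third lay at the floor in both libraries. Only a small share of genes had a higher ratio, since Cdh4 stood at percentile 99.9 of all genes above the floor.

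Cdh3, which encodes P-cadherin, had a signal of 245.6 in positive and 84.4 in negative cells, 2.91-fold higher in the former. Its second probe set was dim, at 28.3 against 7.0, and was at least 2.28-fold higher in the same cells. Cdh1, which encodes E-cadherin, the defining adhesion molecule of epithelia, had 777.5 against 315.4, a 2.47-fold difference read from 1 probe set. In the RefSeq gene table Cdh3 and Cdh1 are direct neighbours, with 0 protein-coding genes between them, and both leaned the same way.

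Cdh2, which encodes N-cadherin, was bright in both libraries at 1194.3 in positive and 899.7 in negative cells. The difference was 1.33-fold, and its second probe set, at 516.5 against 294.6, gave a log2 ratio of 0.81. Cdh2 was thus within 2-fold by both probe sets, while Cdh1 was past it. Cdh15, which encodes M-cadherin of muscle, was close to the floor at 12.4 against 16.8.

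Of the otic epithelium markers, 12 of 13 had ratios above zero. Among those named, the adhesion gene Epcam had 1609.9 in positive and 538.6 in negative cells and the keratin gene Krt8 1366.4 and 532.7, whereas Oc90, an otoconial protein gene, was higher in negative cells at 1405.7 against 939.8. Relative to the median of the otic epithelium markers, the log2 ratio of Cdh1 was -0.057, that of Cdh3 0.18 and that of Cdh2 -0.95, whereas that of Cdh4 was 1.02. Cdh4 alone of all 31 genes was therefore still at least 2-fold higher in positive cells after centring on those markers. It passed the limit by far less than the SD of 0.33 between probe sets at such signals. This also rests on the choice of probe set, because its second one, at 2.08 before centring, falls within 2-fold after it. The summed signal of the 13 epithelial markers was 10595 in positive and 5228 in negative cells. The part of this difference in the ratios of Cdh1 and Cdh3 was not tested.

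Type II classical cadherins leaned the other way. Of 11 genes on the array, 6 lay above the floor in at least 1 library. Of these 6, 3 were at least 2-fold higher in negative cells, against 7.63% of all genes. None was at least 2-fold higher in positive cells, against 2.9% of all genes. Of the 4 above the floor in both libraries, Cdh11 was the 1 past 2-fold, against 5.41% of all such genes in that direction. Cdh5 and Cdh19 passed the floor through the negative library alone. Cdh11, which encodes the cadherin of mesenchyme and bone-forming cells also called OB-cadherin, was read far above the floor. Its signal was 2221.7 in negative and 457.5 in positive cells, a 4.86-fold difference. A second probe set gave 210.1 against 33.7, a log2 ratio of -2.64. The ratio of Cdh11 did not depend on the floor.

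Beside Cdh11, the periotic mesenchyme markers had a summed signal of 7618 in negative and 541.4 in positive cells and a median log2 ratio of -3.83. Those named were Col3a1, a fibrillar collagen gene with 2733 against 135.5, Col1a2, another collagen gene with 817.9 against 56.8, and Col5a2 with 595.8 against 14.4. Of the 17 markers, 5 were at the floor in positive cells, among them Col1a1 and Twist2. The part of mesenchymal RNA in the Cdh11 ratio was not tested.

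Cdh5, which encodes VE-cadherin of endothelial junctions, had a signal of 47.8 in negative and 1.3 in positive cells. A second probe set of Cdh5 lay below the floor in both libraries. Pcdh12, a protocadherin of endothelium, had 35.3 in negative against 5.8 in positive cells, and its other probe sets lay below the floor. Both genes were thus read above the floor in negative cells alone, and no fold is given because the highest bacterial control probe set reached 12.3 on the positive array. Endothelial markers had a summed signal of 1039 in negative and 154.1 in positive cells, and 8 of 13 were at the floor in the latter. Those named were Cd34 (183.6 against 9.4), Egfl7 (93.1 against 50.3) and Cldn5 (135.7 against 2.2). The part of endothelial RNA in the values of Cdh5 and Pcdh12 was not tested. In the RefSeq table Cdh8, Cdh11 and Cdh5 follow each other with 0 protein-coding genes between, and Cdh8 was below the floor in both libraries.

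Cdh19, a cadherin of neural crest and Schwann cell precursors, had a signal of 22.9 in negative and 0.9 in positive cells. Its neighbour Cdh7 stood at 6.9 against 0.9, below both floors. Neural crest and glia markers had a median log2 ratio of -2.75, with summed signals of 1080 in negative and 272.0 in positive cells and 2 of 6 at the floor in the latter. Ets1 had 378.2 against 39.3 and Ednrb 368.3 against 32.7, whereas Sox5 was higher in positive cells at 170.3 against 88.3. Their part in the Cdh19 value was not tested. Cdh19 is dim, and with a floor at 12.3 in both libraries its difference fell under 2-fold, as did that of Cdh13, which encodes the membrane-anchored T-cadherin that lacks a cytoplasmic tail and stood at 23.6 against 10.7.

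Cdh6, which encodes K-cadherin, was above the floor in both libraries with 156.5 in negative and 118.2 in positive cells. Its probe sets had log2 ratios of -0.40 and -0.87, both within 2-fold and of the same sign. Cdh10 and Cdh22, cadherins of the nervous system, were dim at 27.1 against 22.8 and 17.1 against 15.8. The type II genes Cdh7, Cdh8, Cdh9, Cdh18 and Cdh20, the kidney and intestinal cadherins Cdh16 and Cdh17, and Ctnna3 were the 8 genes below the floor in both libraries. Their signals were between 0.3 and 9.1 in positive cells and at least 0.6 in negative cells, so these values do not order the libraries.

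**Figure D2:**
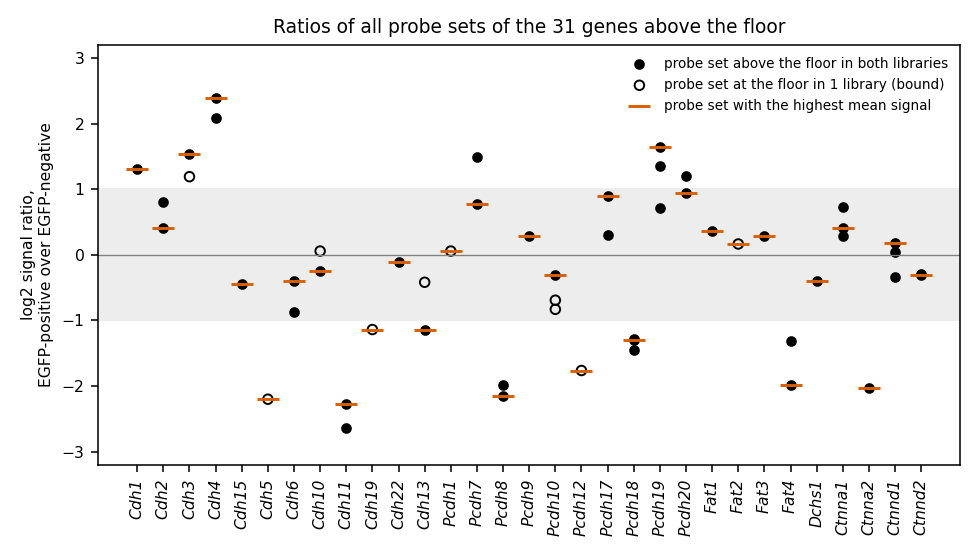
Log2 signal ratio, EGFP-positive over EGFP-negative, of every probe set of the 31 genes that lay above the floor in 1 or both libraries. Filled points are above the floor in both libraries, open points are bounds, orange bars mark the probe set that represents the gene, and the grey band is the range within 2-fold. Both probe sets of Cdh4 lie above the band and all those of Cdh11, Pcdh8, Pcdh18 and Fat4 lie below it.

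Protocadherins divided between the libraries. All 10 genes lay above the floor in at least 1 library. At least 2-fold higher were 1 in positive and 3 in negative cells, against 2.9% and 7.63% of all genes, and 6 were within 2-fold. With the median over all probe sets of a gene the counts were 3 and 3, Pcdh7 and Pcdh20 joining Pcdh19. Over all genes 2.41% and 7.07% passed in that setting. Pcdh19, a delta protocadherin that works together with N-cadherin and is known from an X-linked epilepsy, was the 1 higher in positive cells. Its signal was 279.5 in positive and 89.9 in negative cells, a 3.11-fold difference. The other probe sets gave 258.5 against 101.2 and 45.4 against 27.7, with log2 ratios of 1.35 and 0.71, so that the dimmest was within 2-fold.

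Several protocadherins stood just inside the limit in the direction of Pcdh19. Pcdh20 had 70.1 in positive and 36.6 in negative cells, 1.92-fold higher in the former, and a second probe set past the limit at 30.5 against 13.3. Pcdh17, a delta protocadherin of neurons, had 103.0 against 55.2, 1.87-fold higher in positive cells, with a second ratio of 0.30. Pcdh7 had 75.6 against 44.2, 1.71-fold higher in positive cells, with a second probe set past the limit at 58.1 against 20.6. Pcdh9 was at 48.3 against 39.5. Pcdh17, Pcdh20 and Pcdh9 are consecutive members on the RefSeq annotation, with 2 protein-coding genes between the first pair and 0 between the second, and all 3 had ratios above zero. Pcdh8 lies beyond Pcdh17 with 1 gene between them and leaned the other way. Relative to the median of the otic epithelium markers, the log2 ratio of Pcdh19 was 0.28. On that scale Pcdh20 stood at -0.42, Pcdh17 at -0.46, Pcdh7 at -0.58 and Pcdh9 at -1.07. The part of epithelial RNA in the ratios of these protocadherins was not tested.

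Pcdh8, the protocadherin also called paraxial protocadherin for its part in the segmentation of mesoderm, had a signal of 208.6 in negative and 47.0 in positive cells. The difference was 4.44-fold, and the second probe set, at 182.3 against 46.0, gave a log2 ratio of -1.99. Pcdh18 had 341.5 in negative and 139.3 in positive cells, 2.45-fold higher in the former. All 3 of its probe sets were past 2-fold, between -1.45 and -1.28 on the log2 scale. The hindbrain markers beside them had a median log2 ratio of -2.54 and summed signals of 2450 in negative and 83.3 in positive cells, those named being Zic1 (1523.2 against 14.2), Fabp7 (602.0 against 15.2) and Hes5 (90.9 against 3.7). The part of mesenchymal or hindbrain RNA in the Pcdh8 and Pcdh18 ratios was not tested. Pcdh1 and Pcdh10 were within a few units of the floor, at 12.9 in positive against 11.9 and 15.9 in negative cells.

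Promoter windows from RefSeq were searched for 25 of the 39 genes. These included 5 of the 13 past 2-fold, which were Pcdh19, Pcdh8, Pcdh18, Fat4 and Ctnna2. Cdh2, Ctnna1, Pcdh1 and Pcdh12, which lie on the same chromosome, were left out of the search. Their absence therefore does not show that RefSeq holds no window for them. Windows of 250 bases before the annotated start were searched on both strands for CAGGTG, the E-box bound by Snail and Zeb repressors, for TATAAA and for CCAAT. These motifs occurred in 17.2%, 12.4% and 33.8% of 32851 promoter windows. Shown are Pcdh19, the gene higher in positive cells, and Pcdh8 and Ctnna2, which had the largest differences in the other direction among the searched genes. Each is written 5′ to 3′ on the minus strand of GRCm38.p6, without bases inside the annotated gene, and capitals mark the motifs.
Pcdh19, chrX:133689045-133689243: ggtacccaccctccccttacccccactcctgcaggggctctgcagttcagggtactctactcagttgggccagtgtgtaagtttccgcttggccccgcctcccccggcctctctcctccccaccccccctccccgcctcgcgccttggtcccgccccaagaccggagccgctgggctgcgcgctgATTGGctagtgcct
Pcdh8, chr14:79771313-79771562: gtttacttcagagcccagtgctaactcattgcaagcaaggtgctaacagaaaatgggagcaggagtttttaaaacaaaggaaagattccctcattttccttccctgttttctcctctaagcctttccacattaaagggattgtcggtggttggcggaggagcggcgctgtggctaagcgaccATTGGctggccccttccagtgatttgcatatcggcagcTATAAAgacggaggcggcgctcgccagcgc
Ctnna2, chr6:77979816-77979917: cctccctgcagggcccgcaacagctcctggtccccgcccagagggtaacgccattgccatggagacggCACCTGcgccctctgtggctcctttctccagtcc
Positions count from the start at the end of each window, which for Pcdh19 and Ctnna2 lies inside the annotated gene. Their windows run on for 51 and 148 more bases that are not shown, whereas that of Pcdh8 is shown whole. The CCAAT motif, read here as its complement, began 65 bases before the start of Pcdh19 and 68 bases before that of Pcdh8. TATAAA began 30 bases before the start of Pcdh8. The E-box lay 182 bases before the start of Ctnna2, and none of the other 4 windows held one. The windows contained 16 CG pairs in Pcdh19, 11 in Pcdh8 and 30 in Ctnna2, against a median of 6 over all windows. These matches describe the letters and not binding.

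In the Fat and Dachsous group, 4 of 5 genes were within 2-fold. Fat1, a giant cadherin linked to actin and epithelial polarity, was bright in both libraries at 1200.1 in positive and 931.2 in negative cells, 1.29-fold apart. Fat3, which shapes neuronal processes, had 110.9 against 91.4. Fat4, which binds Dachsous across cell borders, was 3.95-fold higher in negative cells at 298.5 against 75.6, and its second probe set gave a log2 ratio of -1.31. Its ligand gene Dchs1 had 102.1 in negative and 77.7 in positive cells, a 1.31-fold difference. Fat4 was past 2-fold by both probe sets and Dchs1 was within it. Fat2 was near the floor at 13.9 against 2.1.

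Of the 4 catenin genes above the floor, 3 were within 2-fold. Ctnna1, which encodes the epithelial alpha-catenin, had signals of 3208 in positive and 2420 in negative cells, 1.33-fold apart, and its other probe sets above the floor had log2 ratios of 0.29 and 0.73. Ctnnd1, which encodes p120-catenin and stabilises cadherins at the membrane, had 218.3 against 193.0, and its 3 probe sets had log2 ratios between -0.34 and 0.18. Ctnnd2, the neural delta-catenin gene, had 86.4 in negative and 69.8 in positive cells. Ctnna2, which encodes the alpha-catenin of neurons, was the exception, at 96.4 in negative against 23.6 in positive cells, a 4.08-fold difference read from 1 probe set. General neuronal markers differed less, with a median log2 ratio of -0.59 and 2 of 8 at least 2-fold higher in negative cells. Those named were Nefm (925.0 against 361.0), Isl1 (438.6 against 665.1) and Nefl (720.9 against 191.9), each given as negative against positive. The hindbrain neuroepithelium markers, described beside Pcdh8, had a median of -2.54 with 7 of 8 at least 2-fold higher in negative cells. The part of neural RNA in the Ctnna2 ratio was not tested.

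The probe sets of a gene mostly went the same way. Of 18 members with several probe sets above the floor, 16 had ratios of 1 sign, the exceptions being Cdh10 and Ctnnd1. Of the 8 among them that were past 2-fold, 6 had every probe set past it. The other 2 were Pcdh19 and Cdh13.

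Known regulators of cadherin genes leaned to both sides. Of 18 listed regulators, 4 were at least 2-fold higher in positive and 7 in negative cells. The 4 are epithelial factors. Ovol2, a repressor of mesenchymal genes, had 39.3 in positive and 14.5 in negative cells. The splicing regulators Esrp1 and Esrp2 were 2.66-fold and 2.57-fold higher in positive cells, although the second probe set of Esrp2 had a log2 ratio of 0.50. Grhl2, an activator of Cdh1, was 2.32-fold higher there, although the lowest of its 4 probe sets was at -0.92. Esrp1 is also among the epithelium markers.

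The 7 on the other side are factors of mesenchyme, of which several repress Cdh1. Snai2, the Slug repressor gene, was 3.81-fold higher in negative cells at 550.8 against 144.7. Twist1 had 266.5 in negative and 11.5 in positive cells, Twist2 194.0 and 7.5, and Foxc2 139.9 and 10.1. The remaining 3, named after their values were seen, were Snai1 (2.98-fold), Zeb1 (2.87-fold) and Zeb2 (2.26-fold). Of the 3 probe sets of Zeb1, the highest was at -0.94 on the log2 scale, within 2-fold. Twist1, Twist2, Foxc2 and Snai1 are also among the mesenchyme markers.

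Of 29 adherens junction partners above the floor, 25 were within 2-fold, 3 were at least 2-fold higher in positive cells and 1 in negative cells, with a median log2 ratio of 0.17. The 3 were Camsap3 and Plekha7, which anchor microtubules at epithelial junctions, at 2.64-fold and 2.49-fold, and Lmo7 at 2.30-fold, whose second probe set was at 0.068 on the log2 scale. Lima1, which links alpha-catenin to actin, was 2.79-fold higher in negative cells, although the highest of its 4 probe sets was at -0.84. Of 14 other cadherin superfamily genes above the floor, 11 were within 2-fold. The desmosomal cadherin gene Dsg2 was 2.74-fold higher in positive cells at 754.3 against 275.6, although the lowest of its 6 probe sets was at 0.80. Pcdh15, a tip-link component of hair cells, was at the floor in negative cells and at least 3.15-fold higher in positive cells, and the receptor gene Ret was 4.36-fold higher in negative cells. The 23 clustered protocadherin genes read here are Pcdhb genes and Pcdhgc4, so Pcdha and the other Pcdhg genes are not covered. Of these 23, 13 were below the floor in both libraries. The other 10 were dim, and Pcdhb3 was the 1 past 2-fold, at 25.3 in negative against 11.1 in positive cells. Members of this cluster are similar in sequence, so their probe sets may bind related transcripts.

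**Figure D3:**
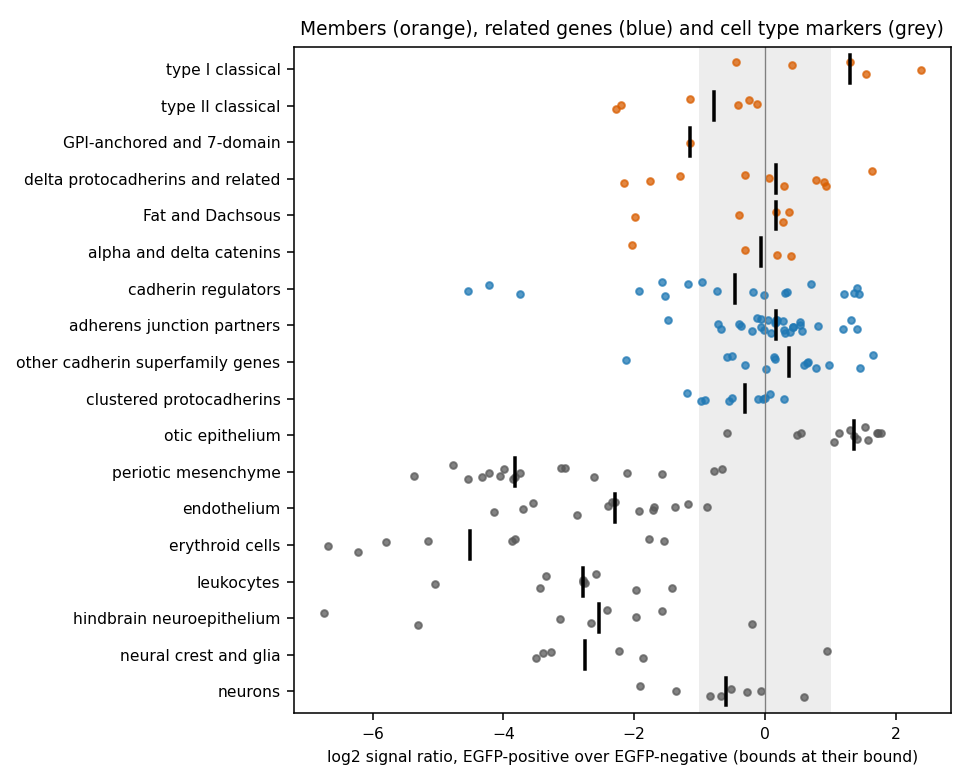
Log2 signal ratio, EGFP-positive over EGFP-negative, of each gene above the floor in the 6 subfamilies (orange), the related gene lists (blue) and the cell type marker lists (grey). Black bars are list medians and the grey band is the range within 2-fold. The type I bar lies at 1.30, beside the otic epithelium bar at 1.36, and the type II bar lies at -0.77.

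The genes past 2-fold depended on the processing to different degrees. Cdh4, Cdh11, Pcdh8, Pcdh18, Fat4 and Ctnna2 were past 2-fold in the same direction in all 10 alternatives that recompute the ratio. For Cdh4 this was narrow with centring on the otic epithelium markers, at a log2 ratio of 1.02 by its brightest probe set. The dim genes Cdh5, Cdh13, Cdh19 and Pcdh12 dropped out with a floor at the 60th percentile, and Cdh1, Cdh3 and Pcdh19 with centring on the otic epithelium markers. Cdh5, Cdh19 and Pcdh12 also dropped out where only genes above the floor in both libraries counted. Cdh19 was lost as well with 1 common floor, with quantile normalization and with a floor at the highest bacterial control. Cdh13 dropped out in 6 of the 10.

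**Figure D4:**
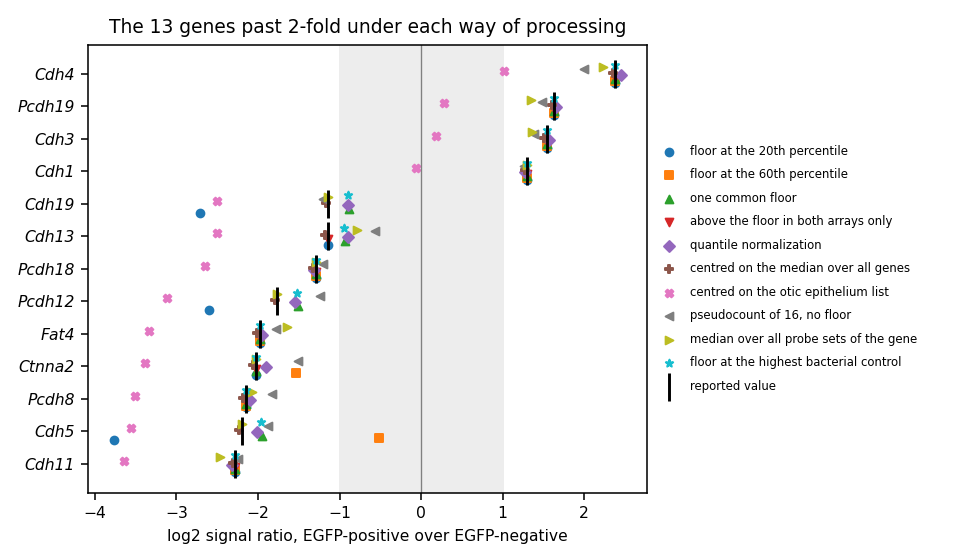
Log2 signal ratio of the 13 genes past 2-fold, with the reported value as a black bar and each alternative way of processing as a coloured symbol. The grey band is the range within 2-fold. Centring on the otic epithelium list (pink crosses) moves every gene to the left by 1.36, and a floor at the 60th percentile (orange squares) moves Cdh5 and Ctnna2 towards 0.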

How the data were processed

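Each population was measured on 1 array, from 1 µg of total RNA per the labels' protocols. The deposited values are intensities, 1 signal per probe set for 45101 probe sets, which the authors made with MAS5, version 5.0, per the submitters' processing notes. In both columns the mean without the lowest and highest 2% of values was 100.0. Probe sets were named from the platform annotation, with current symbols from the RefSeq gene table of GRCm38.p6. A single gene was named by 34958 of them, while 932 that name several genes and 9211 unnamed here were left out.

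Ratios, counts and medians were computed with Python 3.11.15, numpy 2.4.6 and pandas 2.3.3. No p-value is given, and the number of arrays limits the precision. The procedure was tested on simulated data. The members and all gene lists were chosen with earlier results of these data known. Every member is named, with related genes past 2-fold (at most 4 per list and direction, unless said otherwise) and the 3 markers with the highest mean signal of the lists described in detail. Alternatives changed the floor, scaling, pseudocount, choice of probe set and limit.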

Additional observations from a re-analysis of the deposited data

How the results depend on the processing

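With 1 array per population no replicate could be left out, and no paired analysis was possible because each group holds 1 sample. Against the reported 4 genes higher in positive and 9 in negative cells, a floor at the 60th percentile gave 5 in negative cells (4.65% of all genes) and a median log2 ratio of 0.28, over 22 genes. A limit of 1.5-fold gave 7 genes higher in positive cells, where 7.84% of all genes passed it, 4 of them protocadherins. The median over all probe sets of a gene gave 6 and 8, where 2.41% and 7.07% of all genes passed. It added Pcdh7 and Pcdh20 and lost Cdh13. Centring on the otic epithelium list gave 1 gene higher in positive and 21 in negative cells, a median of -1.47, 5 of 12 subfamily counts as reported, and a log2 ratio of Cdh1 turned to -0.057. The same centring put 84.2% of all genes past 2-fold towards negative cells. Of the 13 genes past 2-fold, 11 were kept with 1 common floor, with quantile normalization and, added after seeing the data, with a floor at the highest bacterial control. All 13 were kept with a floor at the 20th percentile or with centring on all genes. With quantile normalization the median log2 ratio of the members was 0.13, against 0.037 over all genes. Signals near the floor, as for Cdh13 and Cdh19, limit the size of their differences.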
